A study of Arabidopsis thaliana with 12 samples.

Results

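The comparison described here sets seeds of the Arabidopsis thaliana mutant erf4 (erf4-1, a knockout of ERF4 in the Col-0 background) against seeds of wild-type Col-0, both after 6 h of imbibition, the uptake of water that starts germination. Its members are the 3 libraries labelled erf4 imbibed seeds and the 3 labelled Col-0 imbibed seeds, 6 of the 12 RNA sequencing libraries in the series, with every gene of the count table. All 6 samples were whole seeds that had been freshly harvested from plants grown under 16 h of light a day and then kept on wet filter paper. The other 6 libraries were dry seeds of the same genotypes (0 h). They entered the filter on low counts, the scaling and the estimate of the spread. They are also quoted or contrasted with imbibed seeds for single genes and lists. The labels name 1 mutant allele without saying where it interrupts the gene. Nor do they tell if the replicates were grown or harvested apart, so every p-value rests on the variation among these particular samples, some of which may come from handling alone.

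ERF4 belongs to the AP2/ERF family of plant transcription factors. It binds the GCC box, a short promoter sequence that many ethylene-responsive genes carry, and acts as a repressor through an EAR motif, the peptide by which plant repressors recruit co-repressors. Freshly harvested seeds of this species are usually dormant: abscisic acid (ABA) holds germination back through receptors that inhibit clade A protein phosphatases and so free SnRK2 kinases to act on factors such as ABI5, while gibberellin and ethylene favour germination.

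In imbibed seeds 3 transcripts were higher and 1 was lower in the libraries labelled erf4 at an adjusted p under 0.05 (edgeR's quasi-likelihood test with Benjamini-Hochberg adjustment). These were IRT3, which encodes a zinc and iron transporter of the ZIP family, AT1G75945, an uncharacterized gene, RPL18AA, annotated as a 60S ribosomal protein L18A, and HEI10, a RING protein known for its part in meiotic crossover formation. They were 4 of 18897 genes tested (0.0212%), 3 higher (0.0159%) and 1 lower (0.00529%). The number of calls varied with the libraries and the tool used: it was 47 without imbibed erf4 replicate 2, between 4 and 13 without any other single library, 72 with limma-voom and 527 with DESeq2.

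The sequences just upstream of the 2 called genes with the largest fold changes are shown because the bases where a factor such as ERF4 would bind lie in windows of this kind. Each is the 250 bases before the annotated gene start on the gene's own strand, read 5′ to 3′ from the RefSeq assembly TAIR10.1. IRT3 lies on the minus strand of chromosome 1 (chr1:22445299-22447299) and its window is chr1:22447300-22447549. In it the capitals mark the core of the zinc deficiency response element, TGTCGACA, which the Arabidopsis factors bZIP19 and bZIP23 bind. It starts 24 bases before the gene. AT1G75945 also lies on the minus strand (chr1:28515245-28515916), with the window chr1:28515917-28516166, in which the capitals mark GTCGG, the reverse complement of the DRE core CCGAC bound by DREB factors of the AP2/ERF family. These matches start 99 and 89 bases before the gene.
IRT3 upstream: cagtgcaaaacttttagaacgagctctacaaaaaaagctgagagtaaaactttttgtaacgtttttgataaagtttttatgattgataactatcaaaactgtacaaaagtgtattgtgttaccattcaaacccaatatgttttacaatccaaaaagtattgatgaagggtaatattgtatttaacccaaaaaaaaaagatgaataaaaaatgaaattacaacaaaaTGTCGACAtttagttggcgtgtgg
AT1G75945 upstream: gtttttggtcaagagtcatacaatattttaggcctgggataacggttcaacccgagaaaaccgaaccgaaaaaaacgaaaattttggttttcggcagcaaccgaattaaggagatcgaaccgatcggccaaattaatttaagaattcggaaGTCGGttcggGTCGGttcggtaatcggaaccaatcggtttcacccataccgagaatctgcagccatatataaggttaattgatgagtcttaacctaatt

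Motifs were searched on both strands, each on its own, so that matches of different motifs may overlap. The zinc element core was found upstream of 51 of 18790 tested genes that have a window (0.271%), and the DRE core upstream of 13.1%. The GCC box, GCCGCC, was found upstream of 2.07% of all tested genes, and upstream of 0 of the 4 called genes and 0 of the 24 uncalled genes described after them. RPL18AA (chr1:10498351-10501498, minus strand) and HEI10 (chr1:19963267-19966952, plus strand) held none of the 6 motifs searched in these windows. A match of letters is a description of the sequence, and its absence says only that the letters are not in the 250 bases read.

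Total gene counts were 38157372 to 38398080 in the libraries labelled erf4 and 34283710 to 37905048 in Col-0, at which 3 counts are worth 0.078 to 0.088 CPM (the count scaled to its library's total). Levels below are CPM scaled by TMM factors. Replicates of the libraries labelled erf4 correlated at r = 0.968 to 0.974 across genes on the log2 scale, those of Col-0 at 0.978 to 0.983, and libraries of different genotype at 0.954 to 0.982. On the first principal component of these 6 libraries (41.7% of the variance) erf4 replicates 1, 2 and 3 lay at -65.2, 7.7 and -39.9, and the Col-0 replicates at 25.7, 19.3 and 52.5, so that erf4 replicate 2 lay nearer to Col-0 than the other 2 did. The endosperm gene EPR1 (AT2G27380), an extensin-like gene, had 49014, 343176 and 247389 counts in erf4 replicates 1 to 3 and 280039, 323032 and 398618 counts in Col-0, so that erf4 replicate 1 stood apart. The embryo regulator LEC1 was at 0 in all 6 libraries, and the pollen markers summed to 4.95 to 7.92 CPM in erf4 and 4.91 to 8.42 CPM in Col-0. In whole seeds, fewer cells of a type and less RNA per cell cannot be told apart.

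ERF4 itself did not pass the test. ERF4 (AT3G15210, chromosome 3) had 80, 317 and 741 counts in erf4 replicates 1, 2 and 3, against 839, 664 and 689 counts in Col-0. As TMM-scaled CPM these were 1.67, 7.03 and 14.9 in the libraries labelled erf4 and 21.0, 15.7 and 17.0 in Col-0, which put the erf4 libraries at 9.3%, 39.2% and 83.3% of the Col-0 mean. The groups did not overlap, but erf4 replicate 3 lay just below the lowest Col-0 library, which goes against its label if the allele removes the transcript. The log2 fold change was -1.18 with a standard error of 0.61 (adjusted p = 0.387, edgeR), and -2.04 without replicate 3 (adjusted p = 0.284). In dry seeds ERF4 stood at 3.877, 9.003 and 15.28 CPM in erf4 replicates 1, 2 and 3. Dry Col-0 replicates 1, 2 and 3 had 15.9, 13.59 and 12.54 CPM. The dry groups overlapped through erf4 replicate 3, with a log2 fold change of -0.5813 (adjusted p = 0.6908, edgeR). In both dry and imbibed seeds ERF4 thus rose from erf4 replicate 1 to replicate 3, and the cause was not tested. Because the position of the lesion is not given in the sources used here, counts over the whole gene may include reads from outside it and do not test the label alone. The libraries are therefore called by their labels, and the leading results are also given without erf4 replicate 3.

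**Figure D1:**
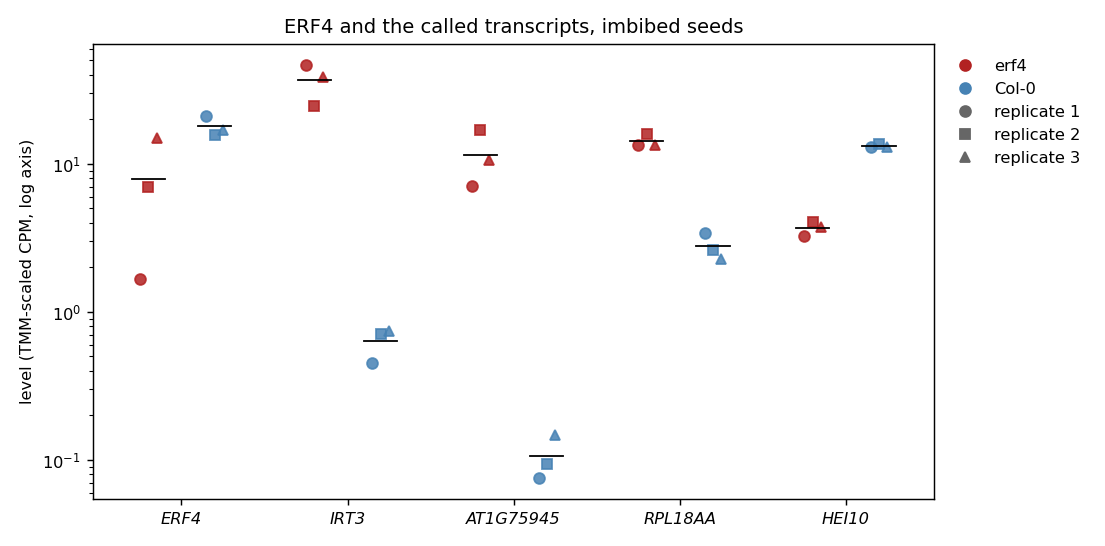
Level of ERF4 and of the 4 called transcripts in each imbibed library, as TMM-scaled CPM on a log axis. Points are libraries (shape gives the replicate number), bars are group means, and libraries labelled erf4 stand left of Col-0. The called genes are separated by genotype in every replicate, while ERF4 in erf4 replicate 3 (14.9 CPM) lies beside the Col-0 libraries (15.7 to 21.0 CPM).

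IRT3 (AT1G60960) had the smallest p of all genes. It stood at 46.8, 24.5 and 38.7 CPM in erf4 replicates 1, 2 and 3, against 0.451, 0.709 and 0.740 CPM in Col-0, where it rested on 18, 30 and 30 counts. The lowest library labelled erf4 lay far above the highest Col-0 library, and replicate 3 was no exception. IRT3 rose by 5.85 ± 0.38 on the log2 scale (standard error, adjusted p = 1.38e-05, edgeR), and by 5.81 without erf4 replicate 3 (adjusted p = 9.16e-05). In dry seeds the same gene stood at 4.13, 3.15 and 3.72 CPM in erf4 and 1.15, 0.346 and 0.987 CPM in Col-0, a log2 fold change of 2.16 (adjusted p = 0.0141, edgeR). The genotype difference was thus 3.68 ± 0.51 larger on the log2 scale after imbibition than in dry seeds, and this difference of differences missed the threshold over all genes (adjusted p = 0.0723, edgeR).

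The genes on either side of IRT3 gave other values. FED A (AT1G60950), a ferredoxin gene that ends 8 bases away on the other strand, had 1893, 1459 and 1663 counts in erf4 and 706, 1161 and 1138 counts in Col-0, a log2 fold change of 0.52 (adjusted p = 0.22, edgeR). AT1G60970, 512 bases upstream on the same strand, had a log2 fold change of -0.29 (adjusted p = 0.495, edgeR), and the kinase gene SNRK2.10 on the far side of FED A one of -0.47 (adjusted p = 0.163, edgeR). None of the 3 reached the size of the IRT3 difference.

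AT1G75945, whose product the annotation calls uncharacterized, had the largest fold change of the called genes. It had 338, 759 and 529 counts in erf4 replicates 1, 2 and 3 against 3, 4 and 6 counts in Col-0, that is 7.04, 16.8 and 10.6 CPM against 0.0752, 0.0946 and 0.148 CPM. The Col-0 libraries were close to the level of 3 counts, so the size of the difference is imprecise although the groups were far apart. The log2 fold change was 6.72 ± 0.47 (adjusted p = 6.82e-05, edgeR) and 6.77 without erf4 replicate 3 (adjusted p = 0.000304). Dry seeds had 5.18, 8.20 and 5.18 CPM in erf4 and 0 in all 3 Col-0 libraries. The nearest expressed neighbour, SKP1 (AT1G75950), which encodes a subunit of SCF ubiquitin ligases and starts 603 bases away on the other strand, had a log2 fold change of -0.26 (adjusted p = 0.462, edgeR).

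RPL18AA (AT1G29970) stood at 13.4, 15.9 and 13.3 CPM in erf4 replicates 1, 2 and 3, against 3.43, 2.60 and 2.27 CPM in Col-0. It rose by 2.36 ± 0.19 on the log2 scale (adjusted p = 6.82e-05, edgeR) and by 2.41 without erf4 replicate 3 (adjusted p = 0.000304). All 3 libraries labelled erf4 were alike, and none came near Col-0. Dry seeds had higher levels in both genotypes, 39.9, 56.6 and 41.0 CPM in erf4 and 4.76, 5.05 and 5.37 CPM in Col-0, with a log2 fold change of 3.18 (adjusted p = 4.39e-06, edgeR). The difference between the imbibed and the dry contrast was -0.82 ± 0.26 (adjusted p = 0.301, edgeR).

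A second gene at this place was also higher in the libraries labelled erf4. It would not have passed the filter on low counts without them, and so had to differ. AT1G29965, annotated as another L18ae family protein, overlaps RPL18AA by 1112 bases on the same strand and had 40, 14 and 19 counts in erf4 but 0 in every Col-0 library. Its adjusted p was 0.132 (edgeR), and reads from the overlap cannot be assigned with certainty to either gene. On the other side, AT1G29980, 1741 bases upstream, had 1726, 1326 and 2155 counts in erf4 and 515, 954 and 526 counts in Col-0, a log2 fold change of 1.17 ± 0.24 (adjusted p = 0.117, edgeR). AT1G29960, 2146 bases downstream, had 185, 141 and 134 counts in erf4 and 65, 77 and 73 counts in Col-0, with a log2 fold change of 0.88 (adjusted p = 0.182, edgeR). Neither neighbour passed the test, and their libraries did not overlap between the genotypes.

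HEI10 (AT1G53490) was the called gene that was lower in the libraries labelled erf4. It had 3.27, 4.04 and 3.74 CPM in erf4 replicates 1, 2 and 3, against 13.0, 13.7 and 13.1 CPM in Col-0. It fell by 1.85 on the log2 scale with a standard error of 0.19 (adjusted p = 0.000927, edgeR), and by 1.86 without erf4 replicate 3 (adjusted p = 0.00913). Both groups were tight, and each library labelled erf4 lay well under the lowest Col-0 library. Dry seeds had 4.39, 6.46 and 5.09 CPM in erf4 and 10.3, 7.59 and 9.87 CPM in Col-0, a log2 fold change of -0.81 that missed the threshold (adjusted p = 0.059, edgeR). The difference between the imbibed and the dry contrast was -1.04 ± 0.27 (adjusted p = 0.25, edgeR).

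HEI10 overlaps 3 other annotated genes. MRD1, on the other strand, shares 1446 bases and had at most 6 counts in an imbibed library, AT1G07887 had 0, and MUM4 shares 9 bases and had a log2 fold change of 0.21 (adjusted p = 0.762, edgeR). In a list of 16 meiotic recombination factors, all tested, HEI10 was the member called. ASY1, a protein of the meiotic chromosome axis, averaged 0.747 CPM in erf4 and 1.45 CPM in Col-0 (log2 fold change -0.96, adjusted p = 0.315, edgeR). It shares 214 bases with AT1G67365 on the other strand, a gene with up to 935 counts, so its reads are uncertain. The median of the list was -0.05 on the log2 scale, beside 0.01 for all genes. It was also -0.05 over the 14 members left without ZYP1a and RCK, which passed the filter on low counts through a single group.

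The 4 called genes all lie on chromosome 1, which holds 26.2% of the genes tested, but not near each other. Their adjusted p stayed under 0.05 whichever single library was left out. DESeq2, which gave an adjusted p for 16697 genes, called 527 (3.16%), 270 of them higher (1.62%) and 257 lower (1.54%), the 4 among them. The DESeq2 counts given for lists below are to be read against these shares. At an unadjusted p under 0.05 (edgeR) there were 2827 genes (15.0%), 1347 higher (7.13%) and 1480 lower (7.83%), where 945 would be the number at that threshold if no gene differed. The 2 groups of libraries did not overlap in 25.8% of genes, higher in erf4 in 13.1% and lower in 12.7%. At an unadjusted p under 0.05 the share of all genes was 5.91% higher and 6.54% lower without erf4 replicate 3, 4.01% and 5.10% without replicate 1, and 7.62% and 9.54% without replicate 2, against which the counts of list members without a library are to be read.

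**Figure D2:**
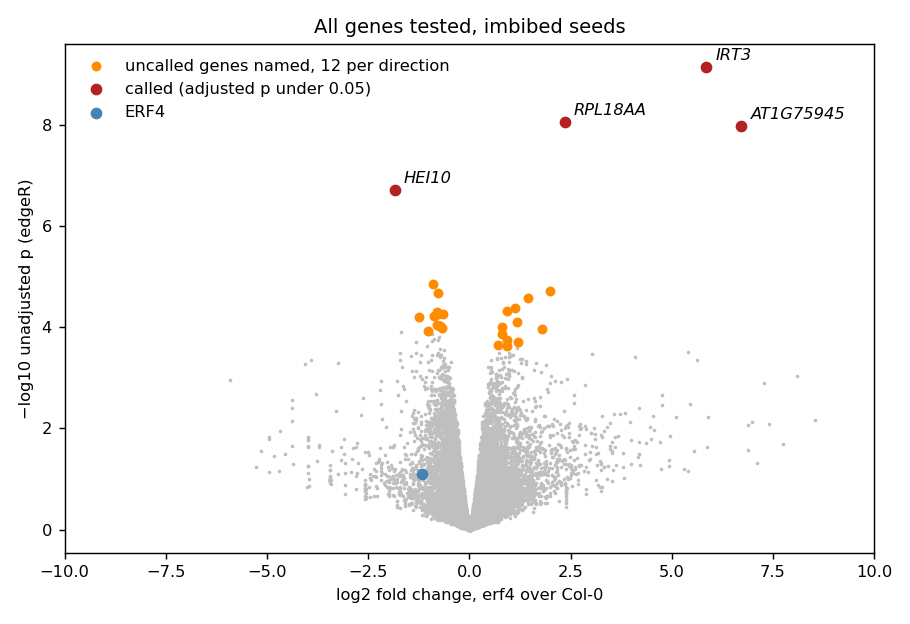
Log2 fold change of erf4 over Col-0 (x axis) against the −log10 of the unadjusted edgeR p (y axis) for the 18897 genes tested in imbibed seeds. The 4 called genes stand above all others, the 24 uncalled genes named in the text (12 in each direction) are marked below them among other genes, and ERF4 lies low with a log2 fold change of -1.18.

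Of the uncalled genes with at least 1 CPM whose groups did not overlap, the 12 with the smallest p in each direction are described next. Their lack of overlap was thus fixed by this choice. All 24 had an adjusted p of 0.054 to 0.117 with edgeR and were called by DESeq2. AT1G17200, annotated as a CASP-like membrane protein, stood at 10.9, 5.01 and 9.06 CPM in erf4 and 2.08, 2.62 and 1.63 CPM in Col-0 (log2 fold change 1.98 ± 0.31, adjusted p = 0.0573, edgeR). Its end overlaps AT1G17210 on the other strand by 78 bases, a gene with up to 4402 counts, so its reads are uncertain. The asparagine synthetase gene ASN3 stood at 26.0, 13.7 and 21.6 CPM in erf4 and 8.10, 7.94 and 6.32 CPM in Col-0 (log2 fold change 1.46 ± 0.24, adjusted p = 0.0629, edgeR). In both genes erf4 replicate 2 was the library nearest to Col-0.

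Cell wall enzymes were 2 of the 12 higher genes. XYL1, an alpha-xylosidase that trims xyloglucan, had 120, 64.8 and 134 CPM in erf4 and 28.7, 41.3 and 21.8 CPM in Col-0 (log2 fold change 1.79 ± 0.32, adjusted p = 0.0929, edgeR). PME3, a pectin methylesterase whose mutants have also been described as zinc sensitive, had 69.8, 51.9 and 76.3 CPM in erf4 and 30.9, 36.0 and 23.4 CPM in Col-0 (log2 fold change 1.13 ± 0.19, adjusted p = 0.0787, edgeR). The receptor kinase gene AT2G26330, ERECTA, which shapes plant organs, had 36.8, 25.6 and 42.0 CPM in erf4 and 13.3, 20.0 and 11.8 CPM in Col-0 (log2 fold change 1.21 ± 0.24, adjusted p = 0.107, edgeR). In these 3 genes replicates 1 and 3 of erf4 were high and replicate 2 was lower, though above Col-0, which the choice of these genes required.

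Of the other higher genes, 2 act in the chloroplast. APG3, a chloroplast peptide release factor, averaged 17.4 CPM in erf4 and 9.91 CPM in Col-0 (log2 fold change 0.81, adjusted p = 0.0929, edgeR), and AT5G01590, listed as TIC56 of the inner envelope translocon, 46.4 CPM in erf4 and 24.3 CPM in Col-0 (log2 fold change 0.93, adjusted p = 0.0787, edgeR). DEL2, an atypical E2F factor of the cell cycle, averaged 10.5 CPM in erf4 and 5.54 CPM in Col-0 (log2 fold change 0.93, adjusted p = 0.106, edgeR). The cruciferin gene CRU2, which encodes a seed storage globulin, had 1135, 1188 and 1358 CPM in erf4 and 526, 584 and 823 CPM in Col-0 (log2 fold change 0.93 ± 0.19, adjusted p = 0.117, edgeR). RIP2, the bHLH gene AT1G68240 and the aminotransferase gene AT3G05190 completed the 12, at log2 fold changes of 1.17, 0.81 and 0.70.

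Genes of hormone signalling and of the chaperone system were among the 12 lower genes. ABI2, a clade A phosphatase that inhibits the SnRK2 kinases, stood at 15.1, 15.0 and 18.6 CPM in erf4 and 30.8, 26.7 and 25.7 CPM in Col-0 (log2 fold change -0.77 ± 0.13, adjusted p = 0.0787, edgeR). AT5G65100, annotated as a member of the EIN3 family of ethylene transcription factors, stood at 27.3, 25.5 and 38.4 CPM in erf4 and 51.6, 54.3 and 60.6 CPM in Col-0 (log2 fold change -0.87 ± 0.15, adjusted p = 0.0787, edgeR). In both genes erf4 replicate 3 was the library nearest to Col-0. Without that replicate AT5G65100 fell by 1.07 and was called (adjusted p = 0.0139, edgeR), as was AT5G06755, an uncharacterized gene with 0.333, 0.466 and 1.47 CPM in erf4 and 1.83, 1.73 and 1.38 CPM in Col-0. ABI2 was not called then (adjusted p = 0.124, edgeR).

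Of the chaperone genes, HSP90.1 stood at 217, 275 and 291 CPM in erf4 and 529, 392 and 680 CPM in Col-0 (log2 fold change -1.03 ± 0.19, adjusted p = 0.0929, edgeR). Hop3, a co-chaperone that links HSP70 and HSP90, averaged 114 CPM in erf4 and 184 CPM in Col-0 (log2 fold change -0.69, adjusted p = 0.0929, edgeR), and BAG3, a regulator of HSP70, 29.6 CPM in erf4 and 46.7 CPM in Col-0 (log2 fold change -0.66, adjusted p = 0.0787, edgeR). The lower genes also included CID12, an RNA-binding protein, at 73.3, 88.1 and 75.8 CPM in erf4 and 139, 129 and 136 CPM in Col-0, PATL2, a patellin of membrane traffic, at 90.3, 92.4 and 102 CPM in erf4 and 161, 159 and 173 CPM in Col-0, and GCL1 at 20.3, 20.7 and 19.6 CPM in erf4 and 41.8, 33.9 and 38.1 CPM in Col-0. All 3 were tight within both groups, with log2 fold changes of -0.77, -0.79 and -0.91. AT3G19680, AT4G32480, AT5G59540 and the calmodulin-binding IQD23 completed the 12 at log2 fold changes of -1.26, -0.80, -0.74 and -0.74.

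**Figure D3:**
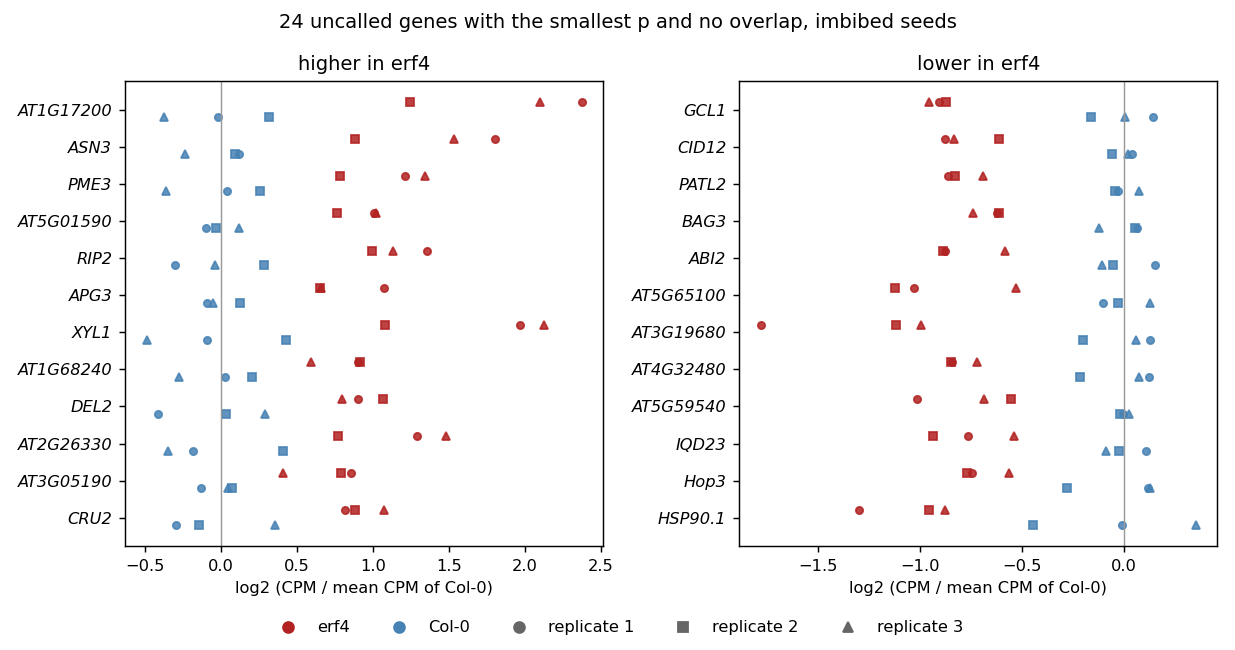
Log2 of each imbibed library's level over the Col-0 mean for the 12 higher (left) and 12 lower (right) uncalled genes with the smallest p and no overlap between groups. Red points are libraries labelled erf4 and blue points Col-0, and the shape gives the replicate number. In several higher genes, such as XYL1 and ASN3, erf4 replicate 2 (squares) is the erf4 library nearest to Col-0.

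Among ethylene genes 0 of 17 tested were called with edgeR and 1 with DESeq2. At an unadjusted p under 0.05 there were 0 higher and 6 lower (35.3%, against 7.83% of all genes), and the median log2 fold change was -0.30. The lower ones were the receptor ETR1, the kinase CTR1 that holds the pathway off, the transcription factors EIN3 and EIL1, the F-box gene EBF2 that targets those factors, and ACS2 of ethylene synthesis. EIN3 stood at 290, 343 and 291 CPM in erf4 and 386, 377 and 410 CPM in Col-0 (log2 fold change -0.34, adjusted p = 0.234, edgeR). ACS2 stood at 10.8, 15.1 and 12.3 CPM in erf4 and 18.2, 17.0 and 25.6 CPM in Col-0 (log2 fold change -0.67, adjusted p = 0.157, edgeR). Both activators and inhibitors of the pathway were thus in the lower set, which counted 4 without erf4 replicate 3, 3 without replicate 1 and 9 without replicate 2.

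Other ERF factors, 14 of them tested, had 0 calls with either tool and a median of -0.07. At an unadjusted p under 0.05, 0 were higher and 1 lower (7.14%, against 7.83% of all genes). Without ERF13, which passed the filter on low counts through a single group, 1 of 13 was lower (7.69%) and the median was -0.08. ERF1A (ERF-1), an activator that binds the GCC box, averaged 31.0 CPM in erf4 and 48.0 CPM in Col-0 (log2 fold change -0.63, adjusted p = 0.193, edgeR). Of 6 defence genes known to carry GCC boxes or to follow ethylene and pathogen signals, 2 passed the filter on low counts. PR4 had 41.3, 22.5 and 25.4 CPM in erf4 and 57.3, 32.0 and 35.1 CPM in Col-0, with overlap (log2 fold change -0.48, adjusted p = 0.372, edgeR). PR1 went the other way without overlap, with 16, 18 and 20 counts in erf4 and 2, 4 and 0 counts in Col-0 (log2 fold change 2.88, adjusted p = 0.353, edgeR), but it would not have passed the filter without the imbibed libraries labelled erf4. The lower set of ERF factors counted 3 without erf4 replicate 3, and 2 without replicate 1 or 2.

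ABA signalling genes lay mostly below Col-0. Of 30 tested members 0 were called with edgeR and 3, all lower, with DESeq2, 1 was higher and 14 lower at an unadjusted p under 0.05 (46.7%, against 7.83% of all genes), and 13 lower ones did not overlap between the groups (43.3%, against 12.7%). The median log2 fold change was -0.34. The lower 14 included 8 clade A phosphatases, which inhibit the pathway and are themselves induced by ABA: ABI2, HAB1, HAB2, AHG1, PP2CA, HAI1, HAI2 and HAI3. HAI1 had 1.56, 2.44 and 2.78 CPM in erf4 and 5.74, 3.26 and 7.99 CPM in Col-0 (log2 fold change -1.32, adjusted p = 0.122, edgeR). PP2CA had 97.9, 116 and 104 CPM in erf4 and 124, 136 and 158 CPM in Col-0 (log2 fold change -0.40, adjusted p = 0.251, edgeR).

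Positive parts of the ABA pathway were among the lower members too. OST1, an SnRK2 kinase, had 24.1, 23.0 and 26.8 CPM in erf4 and 44.8, 41.2 and 36.8 CPM in Col-0 (log2 fold change -0.73 ± 0.16, adjusted p = 0.117, edgeR). The receptor genes differed in direction: PYL5 averaged 69.4 CPM in erf4 and 104 CPM in Col-0 (log2 fold change -0.58), whereas PYR1 averaged 82.3 CPM in erf4 and 58.3 CPM in Col-0 (log2 fold change 0.50), with 115 CPM in erf4 replicate 1 alone. The ABI5 target EM1, a LEA-type gene, had 466, 759 and 430 CPM in erf4 and 1124, 746 and 1607 CPM in Col-0 (log2 fold change -1.07, adjusted p = 0.214, edgeR), with overlap through erf4 replicate 2. In dry seeds the list's median was 0.23, and the lower count was 11 without erf4 replicate 3, 9 without replicate 1 and 13 without replicate 2. Of the 30 genes, 15 (50%) held the ABRE core ACGTG upstream, against 23.2% of all tested genes.

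For ABA synthesis and breakdown, 13 genes were tested, 0 called with edgeR and 2 with DESeq2. At an unadjusted p under 0.05, 0 were higher and 4 lower (30.8%, against 7.83% of all genes). The median log2 fold change was -0.33. NCED6, a carotenoid dioxygenase that makes the ABA precursor in the endosperm, had 0.521, 1.53 and 1.07 CPM in erf4 and 2.91, 2.55 and 4.84 CPM in Col-0 (log2 fold change -1.72 ± 0.36, adjusted p = 0.117, edgeR). NCED2 had 0.583, 0.843 and 0.724 CPM in erf4 and 1.55, 1.99 and 1.83 CPM in Col-0 (log2 fold change -1.32, adjusted p = 0.194, edgeR). Neither gene overlapped between the groups. NCED9 did, at 2.67, 5.59 and 3.90 CPM in erf4 and 5.16, 5.58 and 7.15 CPM in Col-0, and ABA3, which matures the enzyme of the last step, averaged 37.9 CPM in erf4 and 47.6 CPM in Col-0.

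Dormancy regulators had 15 tested members, 0 called with edgeR and 2 with DESeq2, 1 higher (6.67%, against 7.13% of all genes) and 4 lower (26.7%, against 7.83%) at an unadjusted p under 0.05, and a median log2 fold change of 0.00. DOG1, the main quantitative dormancy gene, had 11.9, 10.6 and 11.0 CPM in erf4 and 15.1, 16.3 and 25.6 CPM in Col-0 (log2 fold change -0.76, adjusted p = 0.1495, edgeR). In dry seeds its log2 fold change was much the same, -0.80 (adjusted p = 0.0742, edgeR). RDO5 (AT4G11040), a phosphatase-like dormancy protein, had 92.6, 127 and 96.3 CPM in erf4 and 173, 149 and 204 CPM in Col-0 (log2 fold change -0.73 ± 0.19, adjusted p = 0.14, edgeR). The values of MFT (E12A11), a seed regulator of the phosphatidylethanolamine-binding family, were 28.3, 44.9 and 32.2 CPM in erf4 and 47.9, 48.8 and 63.8 CPM in Col-0. These 3 did not overlap between the groups, and in each Col-0 replicate 3 was the highest library. SOM, a zinc finger repressor of germination, overlapped through erf4 replicate 2, with 364, 698 and 540 CPM in erf4 and 715, 675 and 894 CPM in Col-0.

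Gibberellin genes, 23 tested, showed 0 calls with either tool, 2 higher (8.70%, against 7.13% of all genes) and 1 lower (4.35%, against 7.83%) at an unadjusted p under 0.05, and a median of 0.04. These shares are near those of all genes. GA3OX2, which makes active gibberellin, had 4.50, 2.08 and 3.34 CPM in erf4 and 0.802, 2.08 and 0.839 CPM in Col-0, with almost equal levels in erf4 and Col-0 replicates 2. GA2OX6, which inactivates it, ranged from 1.11 to 1.55 CPM in erf4 and from 2.32 to 2.91 CPM in Col-0, and the gibberellin-responsive GASA6 from 1.24 to 4.04 CPM in erf4 and from 0.296 to 0.851 CPM in Col-0. Without erf4 replicate 2 the list counted 3 higher and 5 lower.

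Heat shock genes were lower in 26 of 27 tested members, by sign, against 9248 of the 18897 genes tested. Their median log2 fold change was -0.67. With edgeR 0 were called and with DESeq2 6, all lower. Of all genes with a DESeq2 adjusted p, 1.54% were called lower. At an unadjusted p under 0.05, 13 were lower (48.1%, against 7.83%), and 10 did not overlap between groups (37.0%, against 12.7%). HSP70 (AT3G12580) had 746, 961 and 965 CPM in erf4 and 1851, 1420 and 1762 CPM in Col-0 (log2 fold change -0.91 ± 0.17, adjusted p = 0.0941, edgeR). The disaggregase gene HSP101 had 195, 187 and 227 CPM in erf4 and 440, 231 and 420 CPM in Col-0 (log2 fold change -0.84, adjusted p = 0.142, edgeR). Col-0 replicate 2 was the Col-0 library nearest to erf4 in both.

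Small heat shock genes belonged to the lower set. AT1G53540, annotated as an HSP20-like chaperone, had 52.5, 71.1 and 74.3 CPM in erf4 and 139, 93.6 and 151 CPM in Col-0, and AT5G51440, with the same annotation, 28.9, 34.1 and 37.3 CPM in erf4 and 58.1, 49.9 and 51.3 CPM in Col-0. HSFA9, a heat shock factor of seed maturation, overlapped between the groups, at 19.3, 32.9 and 24.2 CPM in erf4 and 32.8, 37.8 and 54.7 CPM in Col-0. The lower count was 10 without erf4 replicate 3, 10 without replicate 1 and 11 without replicate 2, and in dry seeds the median was 0.02. Of the 27 genes, 7 (25.9%) held a heat shock element GAANNTTC upstream, against 9.46% of all tested genes.

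Storage and oil body genes had 16 tested members, 0 called with edgeR and 2 with DESeq2, and a median of -0.49. At an unadjusted p under 0.05, 1 was higher (6.25%, against 7.13% of all genes) and 5 lower (31.2%, against 7.83%). The oleosin gene OLEO2 had 434, 1070 and 719 CPM in erf4 and 1306, 1240 and 2032 CPM in Col-0 (log2 fold change -1.04, adjusted p = 0.228, edgeR). HSD1 (AT5G50600), an oil body dehydrogenase, had 7.48, 21.2 and 14.2 CPM in erf4 and 35.7, 45.6 and 117 CPM in Col-0 (log2 fold change -2.21, adjusted p = 0.14, edgeR). HSD1 has an identical copy, AT5G50700, so its reads may be shared with that gene. CRU2, given above, went the other way. The lower count was 3 without erf4 replicate 3, 2 without replicate 1 and 7 without replicate 2.

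LEA genes, whose products protect cells during drying, followed with a median of -0.57 over 16 tested members. Of these, 0 were called with edgeR and 2 with DESeq2, and 5 were lower at an unadjusted p under 0.05 (31.2%, against 7.83% of all genes). RAB18 (AT5G66400), a dehydrin induced by ABA, had 2169, 1918 and 1668 CPM in erf4 and 4433, 2445 and 4447 CPM in Col-0 (log2 fold change -0.98, adjusted p = 0.208, edgeR). LEA7 had 555, 441 and 546 CPM in erf4 and 964, 696 and 793 CPM in Col-0 (log2 fold change -0.67, adjusted p = 0.163, edgeR). Both were without overlap. In dry seeds the median of the same genes was 0.48, and without erf4 replicate 2 the imbibed list counted 2 higher and 8 lower.

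Oil breakdown genes (18 tested) had 0 calls with edgeR and 1 with DESeq2, 1 higher (5.56%, against 7.13% of all genes) and 3 lower (16.7%, against 7.83%) at an unadjusted p under 0.05, and a median of -0.22. The peroxisomal oxidase ACX1 had 298, 281 and 296 CPM in erf4 and 410, 388 and 373 CPM in Col-0 (log2 fold change -0.42 ± 0.12, adjusted p = 0.179, edgeR), and the lipase SDP1, which starts oil breakdown, 91.2, 107 and 110 CPM in erf4 and 144, 121 and 130 CPM in Col-0. The peroxisomal malate dehydrogenase PMDH2 was higher at 2.35, 1.64 and 3.86 CPM in erf4 against 1.00, 0.520 and 0.666 CPM in Col-0. Without erf4 replicate 2 the lower count was 6, and without replicate 1 it was 2.

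Cell wall loosening genes had a median log2 fold change of 0.73 over 24 tested, with 0 called by edgeR and 3 by DESeq2. At an unadjusted p under 0.05, 10 were higher (41.7%, against 7.13% of all genes) and 1 lower (4.17%, against 7.83%). Expansins, which let walls creep, made up 7 of the 10. EXPA15 had 7.08, 3.28 and 10.4 CPM in erf4 and 1.88, 1.49 and 0.937 CPM in Col-0 (log2 fold change 2.27 ± 0.55, adjusted p = 0.131, edgeR). EXPA8 had 18.9, 17.1 and 29.5 CPM in erf4 and 6.67, 12.2 and 9.57 CPM in Col-0 (log2 fold change 1.20, adjusted p = 0.137, edgeR). In other members erf4 replicate 2 was close to Col-0 or within its range: EXPA2 had 34.9, 3.41 and 40.1 CPM in erf4 and 2.31, 3.40 and 1.33 CPM in Col-0, and EXPA9 had 22.8, 4.99 and 30.1 CPM in erf4 and 2.68, 5.44 and 2.79 CPM in Col-0. Summed over the list, levels were 720.4, 764.4 and 1055 CPM in erf4 and 759.6, 929.9 and 878.4 CPM in Col-0, so the total level overlapped between the groups.

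Xyloglucan endotransglucosylases were the other 3 higher wall genes. XTH31 had 2.37, 0.355 and 1.41 CPM in erf4 and 0.0752, 0.142 and 0 CPM in Col-0, and XTH19 10.9, 1.51 and 7.06 CPM in erf4 and 1.33, 1.47 and 0.370 CPM in Col-0. XTH31 passed the filter on low counts only through the imbibed libraries labelled erf4, and so had to differ. Without it 9 of 23 members were higher (39.1%) and the median was 0.71. The lower wall gene, EXO, had 42.6, 80.2 and 98.4 CPM in erf4 and 102, 166 and 133 CPM in Col-0. The higher count was 7 without erf4 replicate 3, 7 without replicate 1 and 10 without replicate 2. MAN7, a mannanase of the endosperm taken here as an endosperm marker, had 28.8, 17.0 and 32.6 CPM in erf4 and 14.6, 16.6 and 14.2 CPM in Col-0. It shares 131 bases with AT5G66470 on the same strand, a gene with up to 967 counts, so some of its reads are uncertain. EPR1, of the same tissue, was lowest in erf4 replicate 1, so the markers of this tissue did not move together, and their part in the wall gene values was not tested.

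Cell cycle and DNA replication genes had 23 tested members, 0 called with edgeR and 2 with DESeq2, and a median of 0.49. At an unadjusted p under 0.05, 7 were higher (30.4%, against 7.13% of all genes) and 0 lower. CYC1BAT and CDKB1;1 passed the filter on low counts through a single group. Without them 7 of 21 members were higher (33.3%) and the median was 0.72. Subunits of the MCM helicase, which unwinds DNA at replication origins, were 5 of the 7. MCM4 had 8.25, 5.83 and 7.37 CPM in erf4 and 3.46, 4.11 and 3.90 CPM in Col-0 (log2 fold change 0.90 ± 0.21, adjusted p = 0.124, edgeR), and MCM7 (PRL) had 4.35, 3.33 and 4.89 CPM in erf4 and 1.25, 1.49 and 1.04 CPM in Col-0 (log2 fold change 1.73, adjusted p = 0.208, edgeR). None of these groups overlapped. MCM7 shares 437 bases with STP7 on the other strand, a gene with up to 536 counts, so its reads are uncertain. The kinase gene CDKA;1 (CDC2) averaged 44.0 CPM in erf4 and 34.3 CPM in Col-0. The count of higher genes was 4 without erf4 replicate 3, 3 without replicate 1 and 8 without replicate 2.

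Photosynthesis genes, 17 tested, showed 0 calls with edgeR and 2 with DESeq2, with a median of 0.48. At an unadjusted p under 0.05, 5 were higher (29.4%, against 7.13% of all genes) and 1 lower (5.88%, against 7.83%). RBCS1A, the small subunit of Rubisco, had 132, 86.0 and 125 CPM in erf4 and 35.6, 59.6 and 58.8 CPM in Col-0 (log2 fold change 1.15 ± 0.35, adjusted p = 0.193, edgeR). PETC, the Rieske protein of the electron chain, had 12.6, 10.7 and 9.54 CPM in erf4 and 5.16, 7.82 and 7.06 CPM in Col-0 (log2 fold change 0.71, adjusted p = 0.173, edgeR). The lower member was the light-harvesting gene LHCB6, with 2, 5 and 5 counts in erf4 and 16, 8 and 8 counts in Col-0. The higher count was 3 without erf4 replicate 3, 3 without replicate 1 and 5 without replicate 2, and 4 of 16 (25%) without RBCS2B, which would not have passed the filter without the imbibed libraries labelled erf4.

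Ribosomal protein genes, chosen by their annotated product, had more higher than lower members. The list includes some genes of the plastid and some elongation factors annotated to ribosomal protein families. Of 272 tested, 1 was called with edgeR, RPL18AA, and 34, all higher, with DESeq2. Of all genes with a DESeq2 adjusted p, 1.62% were called higher. At an unadjusted p under 0.05, 136 were higher (50.0%, against 7.13% of all genes) and 4 lower (1.47%, against 7.83%). The 4 lower members are annotated to the L18ae or L34e families. In 165 members all erf4 libraries lay above all Col-0 libraries (60.7%, against 13.1%). The median log2 fold change was 0.38, and 244 had a positive sign, against 9615 of the 18897 genes tested. Leaving out 3 members that passed the filter through a single group, AT1G29965 among them, 135 of 269 were higher at an unadjusted p under 0.05 (50.2%). Summed over the list, levels were 49300, 38800 and 38210 CPM in erf4 and 31790, 32590 and 31580 CPM in Col-0, so that replicate 1 was the highest of the libraries labelled erf4. Without replicate 1 the higher count was 52 and the median 0.26, without replicate 3 they were 151 and 0.46, and without replicate 2 134 and 0.43.

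The quartiles of the ribosomal list lay at 0.20 and 0.54 on the log2 scale, and 28 members had a negative sign, down to -0.63 for AT4G26230. The 40S gene AT5G07090 (an S4 protein) had 391, 294 and 314 CPM in erf4 and 240, 227 and 221 CPM in Col-0 (log2 fold change 0.54 ± 0.14, adjusted p = 0.141, edgeR), and AT3G02080 (S19e) 175, 133 and 143 CPM in erf4 and 113, 105 and 108 CPM in Col-0 (log2 fold change 0.47, adjusted p = 0.134, edgeR). These 2 genes were picked as examples after their values were seen. AT5G47190, of the L19 family, had 37.1, 20.4 and 23.2 CPM in erf4 and 11.2, 16.6 and 14.0 CPM in Col-0 (log2 fold change 0.95, adjusted p = 0.122, edgeR). In other genes erf4 replicate 1 stood far above the rest: AT4G33865, of the S14p/S29e family, had 361, 129 and 118 CPM in erf4 and 78.9, 114.5 and 73.0 CPM in Col-0 (log2 fold change 1.19, adjusted p = 0.292, edgeR). The telo box AAACCCTA was found upstream of 40 of the 272 (14.7%), against 4.11% of all tested genes. In dry seeds the median of the list was 0.36.

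**Figure D4:**
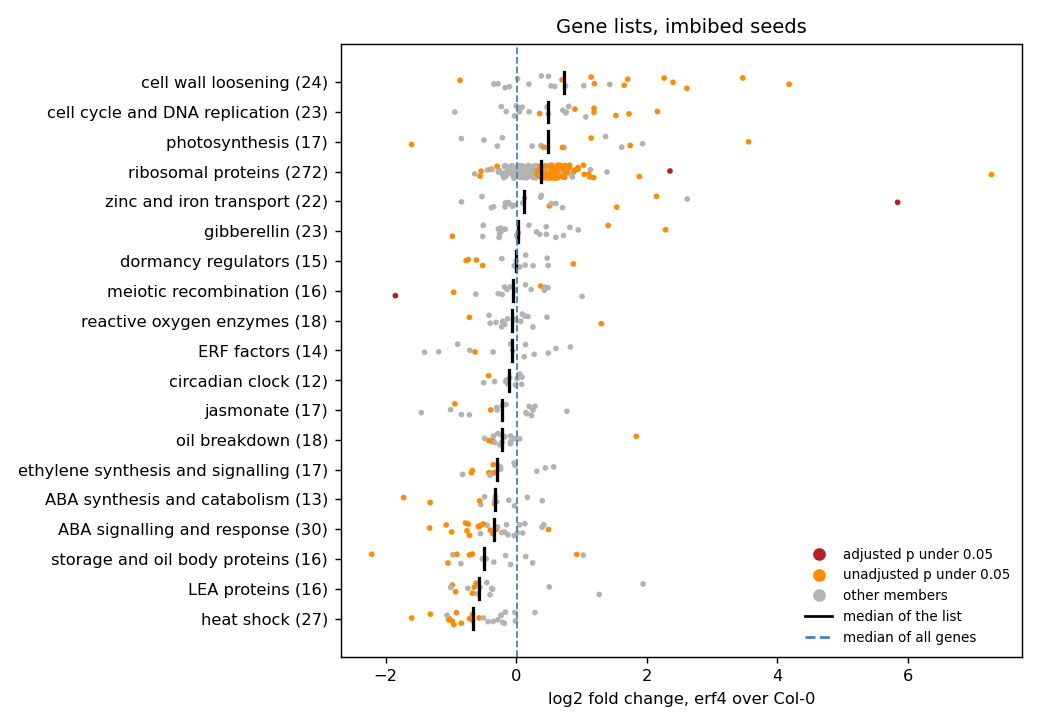
Log2 fold change of erf4 over Col-0 in imbibed seeds for each tested member of the lists with 10 or more tested members (number in brackets). Points are genes, black bars the list medians and the dashed line the median of all genes, 0.01. Medians run from -0.67 for heat shock to 0.73 for cell wall loosening, and most members at a low unadjusted p lie on one side. The ribosomal gene at the far right, AT1G29965, had 0 counts in Col-0, so its place is set by the fit.

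Of 38 genes of zinc and iron transport, a list that includes IRT3, 16 did not pass the filter on low counts, among them IRT1 and ZIP9. Of the 22 tested, IRT3 was called, and the median was 0.12. At an unadjusted p under 0.05, 4 including IRT3 were higher (18.2%, against 7.13% of all genes) and 0 lower. ZIP4 (AT1G10970), a zinc transporter that also carries the zinc element core upstream (starting 39 bases before the gene), had 28.3, 24.9 and 27.6 CPM in erf4 and 17.4, 16.7 and 22.6 CPM in Col-0 (log2 fold change 0.51 ± 0.18, adjusted p = 0.222, edgeR). The pump gene HMA4, which moves zinc into the xylem, averaged 0.844 CPM in erf4 and 0.188 CPM in Col-0, and the iron store ferritin FER1 had 87.7, 36.1 and 138 CPM in erf4 and 26.7, 41.8 and 21.3 CPM in Col-0, with overlap through erf4 replicate 2. ZIP10 and ZIP12 carry the element too and were not tested.

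Enzymes that make or remove reactive oxygen, 18 tested, had 0 calls with edgeR and 2 with DESeq2, and a median of -0.07. At an unadjusted p under 0.05, 1 was higher and 1 lower (5.56% each, under the 7.13% and 7.83% of all genes). RBOHB and RBOH F passed the filter on low counts through a single group. Among the 16 other members the shares were 6.25% each and the median was -0.07. CAT1 was the lower one, at 55.2, 68.8 and 51.0 CPM in erf4 and 88.9, 90.2 and 108 CPM in Col-0 (log2 fold change -0.71 ± 0.18, adjusted p = 0.14, edgeR). The catalases CAT2 (AT4G35090) and CAT3 (AT1G20620) overlapped between the groups: CAT2 had 2940, 2429 and 2356 CPM in erf4 and 2389, 2542 and 2413 CPM in Col-0, and CAT3 1820, 2137 and 1647 CPM in erf4 and 2030, 1931 and 2356 CPM in Col-0. The iron superoxide dismutase FSD1 was the higher one, at 6.25, 2.93 and 3.28 CPM in erf4 and 1.65, 1.16 and 2.22 CPM in Col-0.

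Jasmonate and clock genes had few members at a low p. Of 17 jasmonate genes 0 were called with edgeR and 1 with DESeq2, and the median was -0.21. At an unadjusted p under 0.05, 2 were lower (11.8%, against 7.83% of all genes). Without LOX2, which passed the filter on low counts through a single group, 2 of 16 were lower (12.5%) and the median was -0.18. AOC2, an allene oxide cyclase of jasmonate synthesis, had 17.0, 29.9 and 17.1 CPM in erf4 and 42.5, 41.5 and 38.5 CPM in Col-0 (log2 fold change -0.94 ± 0.19, adjusted p = 0.107, edgeR), and was called without erf4 replicate 2. Of 12 clock genes 0 were called with either tool and 1, PRR9, was lower (8.33%, against 7.83% of all genes), and the median was -0.11. PRR9 had 12.4, 14.7 and 14.5 CPM in erf4 and 19.2, 17.2 and 19.2 CPM in Col-0. PRR9 shares sequence with AT2G46670, so its reads are uncertain.

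Tissue markers had no called member with edgeR or DESeq2. Of 8 pollen and 8 seed coat markers tested 0 reached an unadjusted p under 0.05. Of 3 endosperm markers 2 were higher, MAN7 and FWA (66.7%, against 7.13% of all genes). The third, EPR1, had a log2 fold change of -0.85 (adjusted p = 0.558, edgeR). Of 4 embryo markers OLEO1 was lower (25%, against 7.83% of all genes), at 1615, 3307 and 2256 CPM in erf4 and 3429, 3240 and 5101 CPM in Col-0. The part of tissue composition in the gene differences above was not tested.

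**Figure D5:**
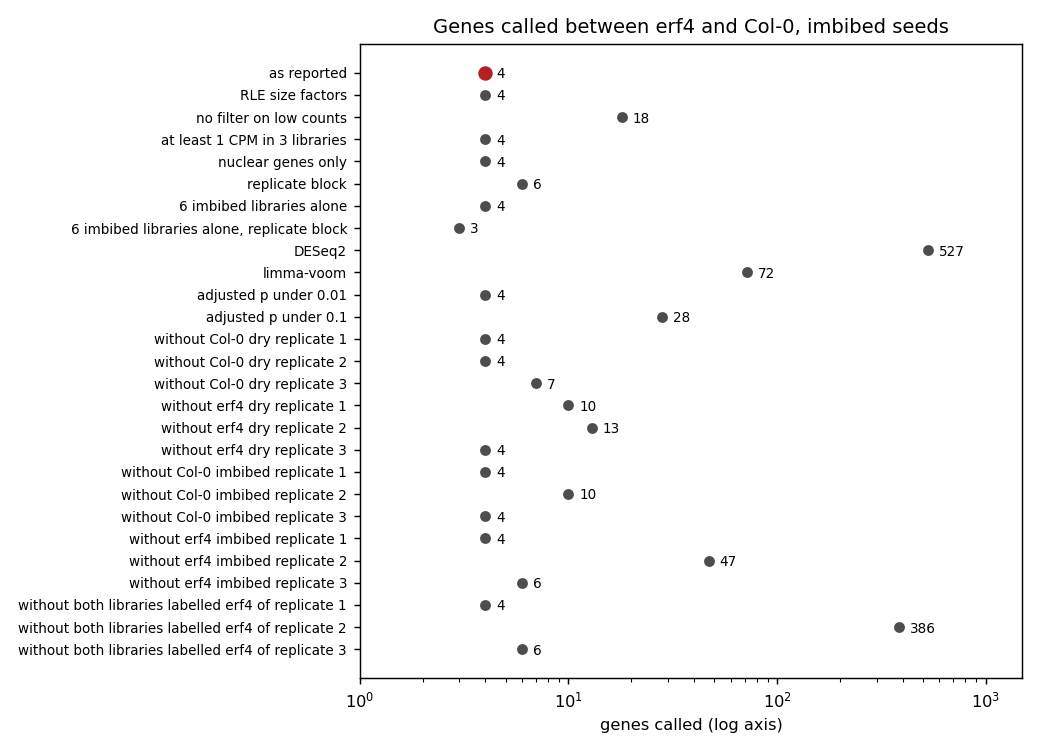
Number of genes called between erf4 and Col-0 in imbibed seeds (log axis) as reported and under each alternative, 1 row each. The count is 4 as reported, 527 with DESeq2, 47 without imbibed erf4 replicate 2, and 386 without both erf4 libraries of replicate 2, dry and imbibed.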

How the data were processed

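What the authors deposited is a single table of unnormalised counts, genes by 12 libraries, whose layout is that of featureCounts per the file headers. The submitters' processing notes name DESeq2 1.34.0, featureCounts 2.0.1, HISAT2 2.1.0, fastp 0.20.0 and the build TAIR10. Their settings, the strand setting among them, and the annotation release are not given in the sources used here, so a gene and a partner that overlaps it could not always be separated. The gene lengths in the deposited table served no test. Names, neighbours and upstream sequence came from the RefSeq assembly TAIR10.1, in which all 32548 nuclear identifiers were found, 99.95% with unchanged coordinates.

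Genes with few counts were removed with filterByExpr (edgeR 4.0.16, R 4.3.3), which kept 18897 genes and 99.97% of counts. One robust quasi-likelihood fit of the 4 group means over 12 libraries with TMM scaling had 8 residual degrees of freedom, and the coefficient of biological variation was 0.241. Calls were made at 0.05 after Benjamini-Hochberg adjustment across the 18897 genes. The difference between the imbibed and the dry contrast was read from the same fit. Floors and the level of 3 counts cover counting error only, since PCR reads are not independent molecules. The files hold no sign of a library deposited more than once: between replicates, chi-square over its degrees of freedom was 23.2 to 110.

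Named were ERF4, every called gene and its neighbours, the 12 uncalled genes in each direction with the smallest p, no overlap between groups and at least 1 CPM, up to 4 members of each list with the smallest p (2 for markers), and DOG1, ABI5, IRT3, HEI10 and the 3 catalases. List members named beyond these were chosen after their values were seen. One list member that the rule named is not reported here. The comparison, the lists and this rule were set with earlier results of these data known. Lists are given by counts and medians, without a test. The meiotic, zinc and wall lists cannot be taken as independent of those results.

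In simulated counts each gene had its mean over all 12 libraries and its fitted spread. Of genes above 1 CPM, 92 of 100 changed 4-fold and 50 of 100 changed 2-fold were called, with 9 false calls among the unchanged genes. Shifts shared by many genes within a library were not simulated, so these shares need not hold for the data. Alternatives were RLE factors, no filter or 1 CPM in 3 libraries, nuclear genes, the replicate number as a block, the 6 imbibed libraries alone, DESeq2 1.42.0, limma-voom (limma 3.58.1), other thresholds, and leaving out libraries. Copies were genes with at least 95% identity over 100 bp (BLAST 2.17.0).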

Additional observations from a re-analysis of the deposited data

How the results depend on the processing

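The number of genes called between erf4 and Col-0 in imbibed seeds was 4. It was also 4 with RLE size factors, with a filter of 1 CPM in 3 libraries, with nuclear genes only, with the 6 imbibed libraries alone and at an adjusted p under 0.01, 18 without a filter on low counts, 28 at an adjusted p under 0.1, 72 with limma-voom and 527 with DESeq2. With 1 library left out it ranged from 4 to 47. The 47 came without erf4 imbibed replicate 2, and the other counts above 6 were 10 without Col-0 imbibed replicate 2, and 13, 10 and 7 without dry erf4 replicate 2, dry erf4 replicate 1 and dry Col-0 replicate 3. Without both erf4 libraries of 1 number, dry and imbibed, it was 386 for replicate 2, 6 for replicate 3 and 4 for replicate 1, and the cause was not tested. With a replicate block it was 6, and 3 in the 6 imbibed libraries alone with a replicate block, where HEI10 was lost. Same-numbered libraries of the genotypes did not deviate together (r = 0.0766, -0.114 and -0.238 across genes), so the numbers are not taken to pair them. The 4 genes were kept in every other setting.

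Of the 4 genes, 0 had a called difference between the imbibed and the dry contrast. The number was 1 without a filter, 1 at an adjusted p under 0.1, 2 with DESeq2, and 0 to 1 with a library left out. Of 108 other genes followed, 59 were called in at least 1 of the 26 settings and 2 turned in sign in at least 1. The depth limits genes near 3 counts in a library, such as AT1G75945 in Col-0.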

Other observations

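Imbibed erf4 replicate 2 lay nearer to Col-0 than the other libraries labelled erf4. Without it, 47 of 19399 genes tested were called with edgeR, 21 higher and 26 lower. Leaving out such a library favours larger differences, so these calls add no support of their own. The genes named here were chosen after their values were seen. SFP1, a sugar transporter gene, fell by 1.79 on the log2 scale, NIT3, a nitrilase gene, by 1.47, the sulfate transporter gene SULTR4;2 by 1.17 and ATSDI1 by 1.68. The alpha-tubulin genes TUA2 and TUA4 rose by 1.28 and 1.86, the photosystem II subunit gene PSBX by 1.93 and the glucan phosphorylase gene PHS2 by 1.28. NCED6 and the chaperone gene Hsp70b fell by 2.11 and 1.55. Replicate 2 itself lay within the range of Col-0 in ATSDI1 (700.9 against 686.3 to 985.2 CPM), TUA2 (13.15 against 10.63 to 13.54 CPM) and TUA4 (2.816 against 2.541 to 4.278 CPM). In the other genes named so far from this setting it lay between the other erf4 libraries and Col-0. Of the 24 uncalled genes without overlap that the report describes first, 12 in each direction, those called in this setting included ASN3, XYL1, PME3, CID12 and GCL1. For the 4 genes called with all libraries, that replicate did not overlap with Col-0.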
